A study of Mus musculus with 6 samples.

Results

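The genes described here are 10 genes of bone-forming and stromal cells, read in mouse bone marrow sorted for blood cells. They are Col1a1, Col1a2, Col3a1, Bglap, Bglap2, Ibsp, Spp1, Sparc, Alpl and Cxcl12, picked by symbol. The pick was made with earlier results of these data known, so comparisons with all loci below are descriptive. All 10 were found, at 1 locus each, among the 23746 gene loci listed for each library. Osteoblasts line the bone surface, secrete a matrix made mainly of type I collagen, and then mineralise it with the help of osteocalcin, bone sialoprotein and tissue-nonspecific alkaline phosphatase. The reticular stroma of the marrow makes the chemokine Cxcl12, which holds blood stem cells in their niche. Neither cell type is of blood origin, but Sparc, Spp1 and Alpl are also made by some blood cells.

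The mice were C57BL/6, aged 12 weeks. KO mice were Diap1 -/-, Het mice were Diap1 +/- and WT mice carried both copies of Diap1, the older symbol of the gene for the actin-nucleating formin mDia1 (now Diaph1). The marrow of 4 mice per genotype was pooled, which gave 3 pools. Magnetic beads took out the cells that carry both Gr1 and Mac1, markers of granulocytes and monocytes (called Gr1+Mac1+), and negative selection of the rest left the uncommitted progenitors (called Lin-). The antibodies of the negative selection and the deleted part of Diap1 are not given in the labels, and no agent was applied. Each of the 6 groups was 1 library of total RNA, so a genotype has no replicate within a fraction, and genotype and pool cannot be told apart.

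Levels are FPKM, the authors' measure of fragments relative to a transcript's length and a library's size, with a 95% interval that covers counting error only. The interval widths imply between 8630000 and 11600000 fragments in genes per library. Between 10795 and 11315 genes reached an FPKM of 1. Diap1 had 6.07, 24.2 and 36.0 FPKM in KO, Het and WT Lin- cells, and 4.07, 34.1 and 57.1 FPKM in KO, Het and WT Gr1+Mac1+ cells, in the order of the labelled genotypes. The Het Lin- library stood apart from the other Lin- libraries: the summed FPKM of 15 neutrophil granule and myeloid genes was 315, 8361 and 274 in KO, Het and WT Lin- cells. S100a8, a neutrophil calcium-binding protein, stood in Lin- cells at 0.0433%, 6.38% and 0.0416% of its Gr1+Mac1+ level in the KO, Het and WT pools. The 10 genes are therefore given for each pool, with the result without the Het pool where a call differs.

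Both osteocalcin genes measured here are near-identical copies on chromosome 3, and their coding sequences show how far their levels can be separated. The copies are Bglap (chr3:88383501-88384464, minus strand, mm10) and Bglap2 (chr3:88377736-88378699, minus strand). Each coding sequence has 288 bases and encodes 95 residues. They are given 5′ to 3′ from the GENCODE transcripts, and capitals mark every position at which these 2 copies differ.

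Bglap: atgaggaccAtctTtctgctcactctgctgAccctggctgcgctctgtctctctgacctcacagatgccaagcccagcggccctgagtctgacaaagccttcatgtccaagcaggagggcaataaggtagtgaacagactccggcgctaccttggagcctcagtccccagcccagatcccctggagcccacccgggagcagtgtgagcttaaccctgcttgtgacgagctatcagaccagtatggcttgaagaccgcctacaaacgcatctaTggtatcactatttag

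Bglap2: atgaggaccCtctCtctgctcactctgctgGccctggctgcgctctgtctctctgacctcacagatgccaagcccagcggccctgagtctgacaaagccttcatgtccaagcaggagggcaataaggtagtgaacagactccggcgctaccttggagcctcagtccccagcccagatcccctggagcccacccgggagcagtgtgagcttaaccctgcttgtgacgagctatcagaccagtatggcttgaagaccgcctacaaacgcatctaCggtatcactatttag

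Bglap2 differs from Bglap at 4 bases of the coding sequence (98.6% identity). Of the 391 windows of 50 bases in the Bglap transcript, 74.7% also occur in Bglap2. Of the 422 windows of Bglap2, 69.2% also occur in Bglap and 88.2% in at least 1 other annotated gene. The split of osteocalcin fragments between the copies is thus uncertain, while their direction between fractions below is the same for both copies. Col1a1, Col1a2, Ibsp, Sparc, Alpl and Cxcl12 share no such window with another gene, and Col3a1 and Spp1 share 1.67% and 2.06% with transcripts annotated on top of them.

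Osteoblast matrix transcripts were among the abundant RNAs of all 3 Lin- libraries. Col1a1 and Col1a2 (the chains of type I collagen), Bglap and Bglap2 (osteocalcin) and Sparc (osteonectin, a collagen-binding matrix protein) stood between 52.4 and 296 FPKM in Lin- cells and between 1.498 and 9.87 FPKM in Gr1+Mac1+ cells. Ibsp (bone sialoprotein) was lower in level and also higher in Lin- cells, by a smaller log2 ratio of FPKM + 1. The added 1 holds that ratio down at low levels. In FPKM alone, the Lin- level of Ibsp was 33.6, 11.4 and 37.7 times its Gr1+Mac1+ level in the KO, Het and WT pools. For Col1a1 it was 24.9, 30.0 and 31.5 times. Cxcl12 was higher in Lin- cells by a small margin, and Alpl and Spp1 did not pass the test. Col3a1 (type III collagen) was below 0.3 FPKM in every library and was not tested. The summed level of the 10 genes was 548, 862 and 459 FPKM in KO, Het and WT Lin- cells, against 36.8, 40.9 and 23.3 FPKM in KO, Het and WT Gr1+Mac1+ cells. That was 0.0903%, 0.143% and 0.0741% of all FPKM in the KO, Het and WT Lin- libraries. In such bulk samples, fewer cells of a type and less RNA per cell cannot be told apart.

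**Figure D1:**
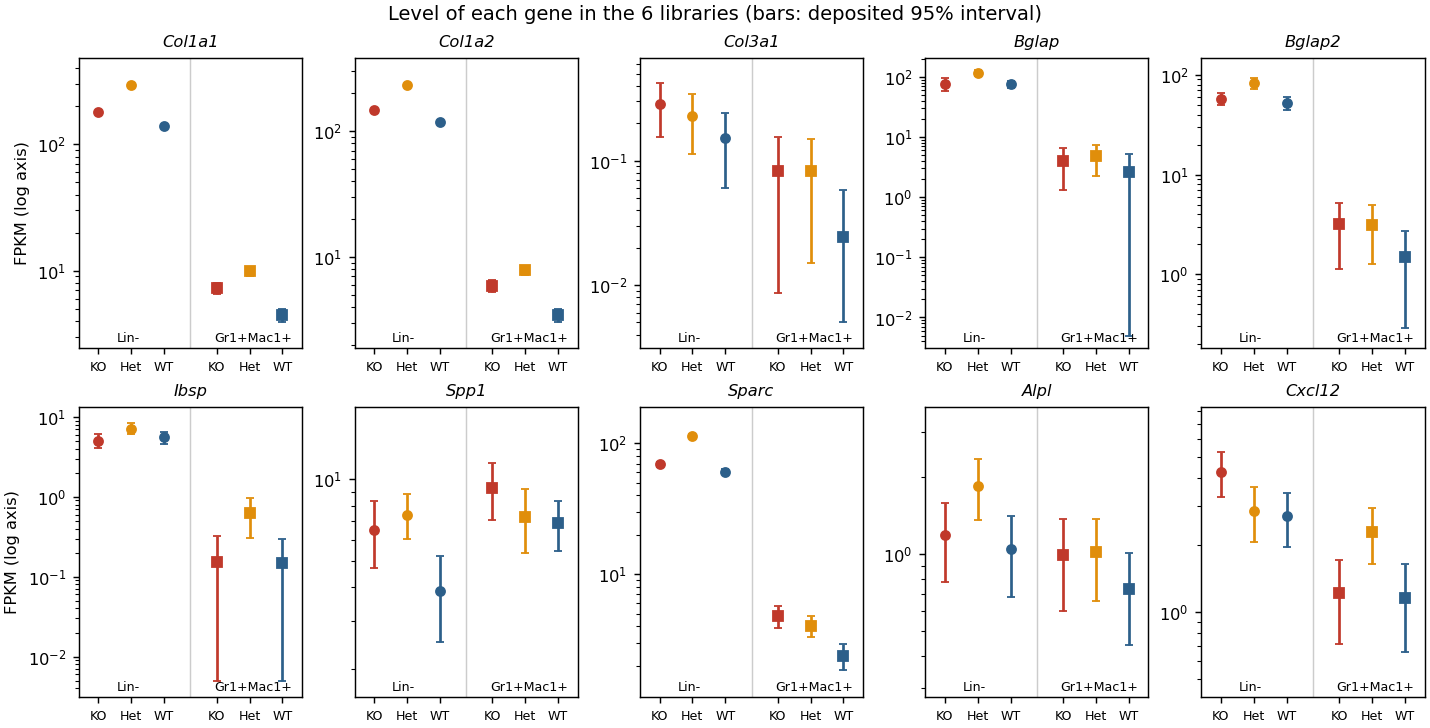
FPKM (log axis) of each of the 10 genes in the 6 libraries, with the authors' 95% counting intervals as bars; lower bounds of 0 are drawn at 0.005. Type I collagen, osteocalcin, Sparc and Ibsp lie far above their Gr1+Mac1+ level in each of the 3 Lin- libraries, Spp1 does not, and Col3a1 stays below 0.3 FPKM throughout.

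The fractions were compared with limma on log2(FPKM + 1), with the pool as a block, over the 11572 loci with a mean FPKM of at least 1. Of the 10 genes 9 were tested, 7 of them were higher in Lin- cells at an adjusted p under 0.05, and 0 were higher in Gr1+Mac1+ cells (also 0 at an unadjusted p under 0.05). Ibsp and Alpl had a mean below 1 FPKM in Gr1+Mac1+ cells and passed the filter only through their Lin- level. Their direction thus follows from the filter. Among all loci tested, 51.5% were higher in Lin- cells and 30.3% in Gr1+Mac1+ cells. After rescaling each library by the median ratio, 36.4% of loci (4213) were higher in Lin- cells and 4771 loci in Gr1+Mac1+ cells. Over the 9 tested genes the log2 ratios had a median of 4.10, beside 0.33 for all loci. By the size of the log2 ratio, Col1a1 ranked 23, Col1a2 25, Bglap 33, Bglap2 36 and Sparc 38 among the 11572 loci, while Ibsp ranked 247, Cxcl12 3913, Alpl 5964 and Spp1 8276.

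Type I collagen is a trimer of the Col1a1 and Col1a2 chains and is the main protein of bone matrix. Col1a1 (chr11:94936270-94951856, plus strand) had 180, 296 and 139 FPKM in KO, Het and WT Lin- cells, against 7.25, 9.87 and 4.42 FPKM in KO, Het and WT Gr1+Mac1+ cells. All Lin- values lay above all Gr1+Mac1+ values. Its log2 ratio was 4.64 (SE 0.08, adjusted p = 0.000124, limma), and it was higher in Lin- cells in 3 of 3 pools. It ranked 414, 258 and 593 by level among all loci in KO, Het and WT Lin- cells.

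Col1a2 (chr6:4505697-4541543, plus strand) had 147, 234 and 118 FPKM in KO, Het and WT Lin- cells, against 5.88, 7.82 and 3.45 FPKM in KO, Het and WT Gr1+Mac1+ cells. Its log2 ratio was 4.63 (SE 0.09, adjusted p = 0.000124, limma). The ratio of the chains, Col1a1 over Col1a2, was 1.23, 1.27 and 1.18 in KO, Het and WT Lin- cells and 1.23, 1.26 and 1.28 in KO, Het and WT Gr1+Mac1+ cells. The chains thus kept nearly the same proportion in both fractions.

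Type III collagen, which many fibroblasts make together with type I, was nearly undetected. Col3a1 (chr1:45311538-45349706, plus strand) had 0.286, 0.228 and 0.151 FPKM in KO, Het and WT Lin- cells, against 0.0821, 0.0822 and 0.0242 FPKM in KO, Het and WT Gr1+Mac1+ cells. The intervals imply 19, 16 and 11 fragments in KO, Het and WT Lin- cells and 5, 6 and 2 fragments in KO, Het and WT Gr1+Mac1+ cells. The ratio of Col1a1 to Col3a1, both per length, was 631, 1298 and 924 in KO, Het and WT Lin- cells.

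Osteocalcin is the most abundant non-collagenous protein that osteoblasts make and binds calcium in the mineral. Bglap had 75.9, 116 and 75.0 FPKM in KO, Het and WT Lin- cells, against 3.92, 4.80 and 2.63 FPKM in KO, Het and WT Gr1+Mac1+ cells. Bglap2 had 57.7, 82.5 and 52.4 FPKM in KO, Het and WT Lin- cells, against 3.19, 3.12 and 1.498 FPKM in KO, Het and WT Gr1+Mac1+ cells. The log2 ratio was 4.23 for Bglap (SE 0.11) and 4.19 for Bglap2 (SE 0.14), each with an adjusted p of 0.000124 by limma and higher in Lin- cells in 3 of 3 pools. The ratio of Bglap to Bglap2 was 1.32, 1.41 and 1.43 in KO, Het and WT Lin- cells, on the uncertain split described above.

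Sparc and Ibsp bind collagen and mineral in bone, and Sparc is also stored in platelets. Sparc (chr11:55394501-55420080, minus strand) had 69.3, 114 and 60.7 FPKM in KO, Het and WT Lin- cells, against 4.79, 4.03 and 2.38 FPKM in KO, Het and WT Gr1+Mac1+ cells. Its log2 ratio was 4.10 (SE 0.19, adjusted p = 0.000135, limma; 3 of 3 pools). Ibsp (chr5:104299287-104311472, plus strand) had 5.07, 7.16 and 5.58 FPKM in KO, Het and WT Lin- cells, against 0.151, 0.629 and 0.148 FPKM in KO, Het and WT Gr1+Mac1+ cells. Its log2 ratio was 2.41 (SE 0.10, adjusted p = 0.000124, limma; 3 of 3 pools). The Gr1+Mac1+ levels of Ibsp rest on an implied 3, 15 and 4 fragments in the KO, Het and WT pools. Ibsp was tested only through its Lin- level, so its direction follows from the filter.

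Spp1 (osteopontin), Alpl and Cxcl12 behaved otherwise. Spp1, a phosphoprotein of bone that activated macrophages also secrete, had 6.53, 7.42 and 3.87 FPKM in KO, Het and WT Lin- cells, against 9.31, 7.29 and 6.88 FPKM in KO, Het and WT Gr1+Mac1+ cells. The fractions overlapped, with a log2 ratio of -0.37 (SE 0.16, adjusted p = 0.0854, limma) and a higher Lin- value in 1 of 3 pools, the Het pool. Without the Het pool the log2 ratio was -0.57 (adjusted p = 0.0105, limma), and after rescaling by the median ratio it was -0.75 (adjusted p = 0.0101, limma).

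Alpl, the alkaline phosphatase of early osteoblasts, had 1.19, 1.85 and 1.05 FPKM in KO, Het and WT Lin- cells, against 0.990, 1.02 and 0.730 FPKM in KO, Het and WT Gr1+Mac1+ cells. Its log2 ratio was 0.29 (SE 0.12, adjusted p = 0.0821, limma), with the Lin- value higher in 3 of 3 pools. Alpl was tested only through its Lin- level, so that direction follows from the filter. Neutrophils also carry this enzyme. Cxcl12 had 4.25, 2.85 and 2.69 FPKM in KO, Het and WT Lin- cells, against 1.21, 2.29 and 1.15 FPKM in KO, Het and WT Gr1+Mac1+ cells. Its log2 ratio of 0.75 (SE 0.22, adjusted p = 0.0293, limma) had the same sign in 3 of 3 pools but was 1.25, 0.23 and 0.78 in the KO, Het and WT pools. Its call was lost without the KO pool (0.50, adjusted p = 0.0807, limma), without the WT pool (adjusted p = 0.103) and after rescaling (0.45, adjusted p = 0.122).

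**Figure D2:**
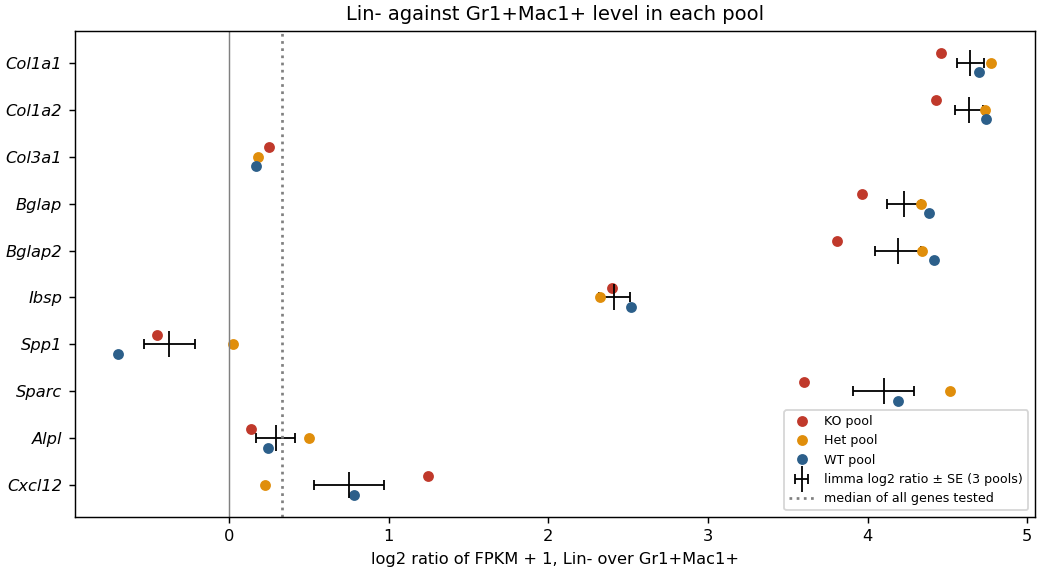
Log2 ratio of Lin- over Gr1+Mac1+ cells on the log2(FPKM + 1) scale for each gene in the KO, Het and WT pools (points), with the limma estimate ± SE over the 3 pools (black) and the median of all loci tested, 0.33 (dotted). The type I collagen chains, both osteocalcin genes and Sparc lie between 3.6 and 4.77 in all pools, Ibsp between 2.32 and 2.52, and Alpl, Col3a1, Cxcl12 and Spp1 near or below 1.25.

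Within each pool the same contrast was read with a size rule, which asks for a 2-fold difference or more in FPKM + 1, a higher library at an FPKM of 5 or above, intervals that lie apart and status OK in both libraries. Col1a1, Col1a2, Bglap, Bglap2, Ibsp and Sparc passed as higher in Lin- cells in every pool, which is 6 of the 7 genes with enough signal in each. None was lower. However, Bglap, Bglap2, Ibsp and Sparc were below 5 FPKM in every Gr1+Mac1+ library, and Col1a1 and Col1a2 in the WT one. There they met the rule only through their Lin- level and could not be called lower, so their direction follows from the rule. Only Col1a1 and Col1a2 in the KO and Het pools were above 5 FPKM in both fractions. The background was 26.5%, 26.2% and 27.0% of loci higher and 19.0%, 18.3% and 19.0% lower in Lin- cells in the KO, Het and WT pools. The Gr1+Mac1+ level of these 6 genes was between 2.98% and 6.91% of the Lin- level in the KO pool, between 3.33% and 8.78% in the Het pool and between 2.66% and 3.93% in the WT pool. For Col1a1 it was 4.02%, 3.33% and 3.17% in the KO, Het and WT pools. These genes are the ones that passed as higher in Lin- cells, so a low share follows from that choice. The remaining 4 were between 16.1% (Col3a1) and 178% (Spp1), both in the WT pool.

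Over the 3 Lin- libraries the highest level divided by the lowest was 2.13 for Col1a1, 1.97 for Col1a2, 1.91 for Spp1, 1.90 for Col3a1 and 1.88 for Sparc, and it was smallest for Ibsp, at 1.41. The median over the 10 genes was 1.82. It was 1.19 between the KO and WT Lin- libraries alone. Mean Lin- levels were 205 ± 81.3 FPKM for Col1a1, 89.0 ± 23.5 for Bglap, 81.4 ± 28.7 for Sparc and 5.93 ± 1.09 for Ibsp (SD, n = 3 pools that differ in genotype). The Het library held the highest Lin- level of 8 genes and the KO library that of Col3a1 and Cxcl12. The WT library held the lowest Lin- level of 9 genes, with Ibsp lowest in the KO library.

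The comparisons between genotypes ask whether loss of 1 or both copies of Diap1 goes with a different level of these transcripts. With 1 library a group they have no test, and the KO and Het comparisons share the WT library. Between KO and WT Lin- cells, 0 of 7 eligible genes passed the size rule, on a background of 0.182% of loci higher and 0.0484% lower. The log2 ratio was 0.37 for Col1a1 (counting SE 0.02), 0.31 for Col1a2 (0.02) and 0.19 for Sparc (0.05), each with intervals apart. The intervals hold counting error only, so abundant genes lie apart at small differences. The share of all loci with intervals apart was not counted, here or in the comparisons below. For the other genes the log2 ratios were as follows. Bglap stood at 0.02 (0.19), Bglap2 at 0.14 (0.15), Ibsp at -0.12 (0.16) and Alpl at 0.09 (0.19), all with overlapping intervals. Spp1 stood at 0.63 (0.26) and Cxcl12 at 0.51 (0.20), and their intervals overlapped too: Cxcl12 had 4.25 FPKM (3.28 to 5.22) in KO and 2.69 FPKM (1.95 to 3.43) in WT Lin- cells. The median over the 10 genes was 0.17. Over the 9 with a mean FPKM of at least 1 in the KO and WT Lin- libraries it was 0.19. The median of the 10882 loci past that filter was 0.00307.

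Between Het and WT Lin- cells, Col1a1 passed the size rule as higher, at a log2 ratio of 1.08 (counting SE 0.02). It was 1 of 7 eligible genes, on a background of 1.70% of loci higher and 0.0836% lower. Col1a2 at 0.97 (0.02) and Sparc at 0.90 (0.04) fell short of 2-fold, with intervals apart. Bglap at 0.62 (0.11), Bglap2 at 0.65 (0.13) and Spp1 at 0.79 (0.23) also had intervals apart. Ibsp stood at 0.31 (0.15), Alpl at 0.48 (0.18) and Cxcl12 at 0.06 (0.21), with overlapping intervals. All 10 log2 ratios were positive, with a median of 0.63.

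Between KO and Het Lin- cells, 0 of 7 eligible genes passed the size rule, on a background of 0.119% of loci higher and 1.52% lower. The log2 ratio was -0.71 for Col1a1 and Sparc, -0.66 for Col1a2, -0.61 for Bglap and -0.51 for Bglap2. Of the 10 log2 ratios 8 were negative, and Cxcl12 stood at 0.45.

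**Figure D3:**
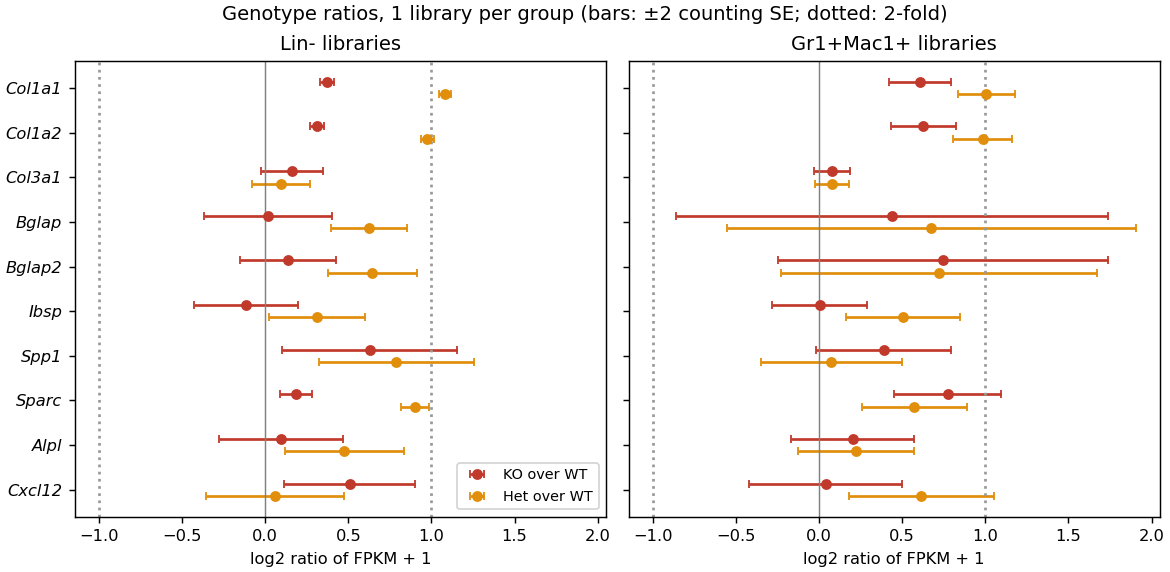
Log2 ratio on the log2(FPKM + 1) scale for each gene in KO over WT and Het over WT cells, in the Lin- and the Gr1+Mac1+ fraction, with bars of 2 counting SE on each side and dotted lines at 2-fold. Col1a1 reaches 1.08 in Het over WT Lin- cells and 0.37 in KO over WT Lin- cells.

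Other cell types moved in the Het Lin- library as well. By the size rule, 14 of the 15 neutrophil and myeloid genes were higher in Het than in WT Lin- cells, as was the matrix gene Fn1, with 10.3 FPKM in Het and 1.59 FPKM in WT Lin- cells. The summed level of 12 megakaryocyte and platelet genes was 258, 520 and 376 FPKM in KO, Het and WT Lin- cells, and that of 14 tissue macrophage genes 49.2, 65.4 and 45.6 FPKM. Slc40a1, an iron exporter, made up most of the macrophage sum at 35.9, 39.7 and 37.7 FPKM in KO, Het and WT Lin- cells, while C1qc had 0.664, 2.16 and 0.173 FPKM. The 5 macrophage genes with a mean FPKM of at least 1 over the Het and WT Lin- libraries had a median log2 ratio of 1.35 in Het over WT. Genes low in WT, such as C1qc, entered only because Het was high, so this median follows in part from the filter. The 10 progenitor genes summed to 470, 393 and 415 FPKM. In the KO Lin- library the platelet genes stood below WT while type I collagen stood above it. The part of these cells in the levels of the bone matrix genes was not tested.

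**Figure D4:**
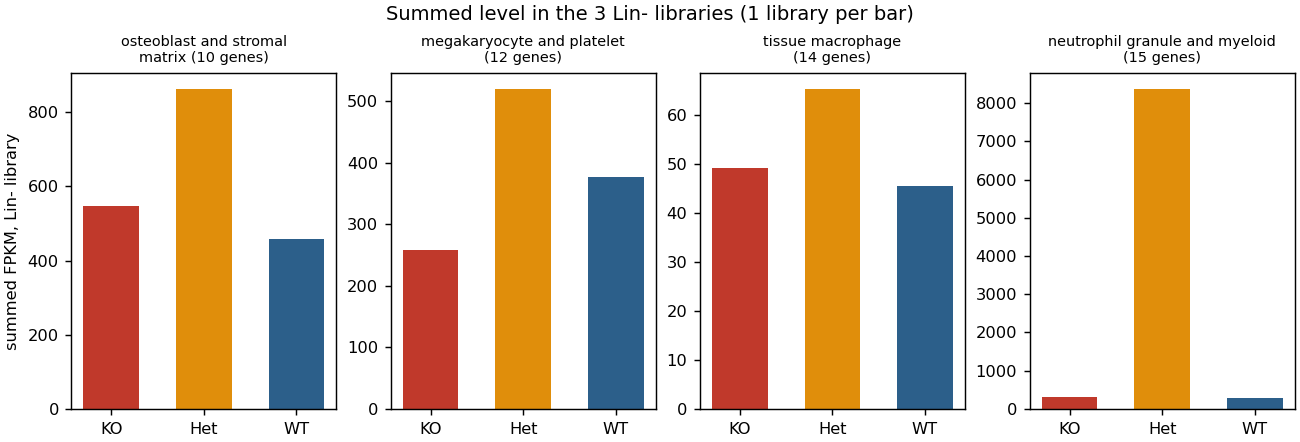
Summed FPKM (each panel has its own axis from 0) of the matrix genes and of megakaryocyte, macrophage and neutrophil lists in the KO, Het and WT Lin- libraries, 1 library per bar. The 10 matrix genes sum to 548, 862 and 459 FPKM in KO, Het and WT, and the neutrophil genes to 315, 8361 and 274 FPKM.

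In Gr1+Mac1+ cells the levels were low, and only 3 of the 10 genes were eligible in each genotype comparison. Between KO and WT Gr1+Mac1+ cells 0 passed, on a background of 0.0599% of loci higher and 0.132% lower. Col1a1 stood at 0.61 (counting SE 0.09), Col1a2 at 0.63 (0.10) and Sparc at 0.77 (0.16), with intervals apart. Between Het and WT Gr1+Mac1+ cells Col1a1 passed as higher at 1.004 (0.09), on a background of 0.0480% higher and 0.132% lower, and Col1a2 stood at 0.99 (0.09). Col1a1 was at the edge of the rule there and did not pass with a pseudocount of 5. Between KO and Het Gr1+Mac1+ cells 0 of 3 passed, on a background of 0.0838% higher and 0.0958% lower. The WT library had the lowest level of all 10 genes in this fraction.

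The wider programme of bone-forming cells was seen in part. Of 25 regulators and late markers of osteoblasts, 15 were below 1 FPKM in every library. Sp7 (osterix), the transcription factor that commits cells to the osteoblast line, had 0.620, 0.772 and 0.495 FPKM in KO, Het and WT Lin- cells, against 0.0423 FPKM in KO and 0 in Het and WT Gr1+Mac1+ cells. Runx2, which acts above Sp7, was lower in Lin- cells: 5.22, 3.49 and 3.51 FPKM in KO, Het and WT Lin- cells, against 8.38, 10.99 and 9.83 FPKM in KO, Het and WT Gr1+Mac1+ cells (log2 ratio -1.09, adjusted p = 0.00494, limma). Of the 6 list genes tested, 3 were higher in Lin- cells and 2 in Gr1+Mac1+ cells, near the 51.5% and 30.3% of all loci, and the median of their log2 ratios was 0.52. Omd (osteomodulin, a bone proteoglycan) was higher in Lin- cells by 1.603 (adjusted p = 0.00058, limma), but its locus lies within Cenpp on the opposite strand and the strand of the libraries is not stated. The Runx2 locus likewise overlaps Supt3, a gene on the opposite strand, over 37646 bases. The label of the 10 genes as osteoblast matrix thus rests on the secreted products, with Sp7 low and Runx2 on the other side.

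Of 26 genes that process collagen, 15 were tested, 7 were higher in Lin- cells and 5 in Gr1+Mac1+ cells, shares near the 51.5% and 30.3% of all loci, with a median log2 ratio of 0.22. Serpinh1 (HSP47), the chaperone dedicated to procollagen, had 6.17, 9.29 and 4.62 FPKM in KO, Het and WT Lin- cells, against 0.782, 1.06 and 0.384 FPKM in KO, Het and WT Gr1+Mac1+ cells. Its log2 ratio was 2.12 (SE 0.11, adjusted p = 0.000155, limma), and the Het library was highest in each fraction, as for type I collagen. Bmp1, the protease that trims the end of procollagen, was higher in Lin- cells by 2.24. Serpinh1 and Bmp1 had a mean below 1 FPKM in Gr1+Mac1+ cells and were tested only through their Lin- level. Their direction thus follows from the filter. Ppib was higher by 0.48 and Crtap, its partner in prolyl 3-hydroxylation, by 1.16. The general enzymes P4hb and Plod3, which many secretory cells use, were lower in Lin- cells by log2 ratios of -0.37 and -1.54.

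Of 23 other collagen genes, 16 were below 1 FPKM in every Lin- library. Of the 6 tested 5 were higher in Lin- cells, beside 51.5% of all loci. Col2a1, Col5a2 and Col11a1 passed the filter for testing only through their Lin- level, and Col5a3 only through its Gr1+Mac1+ level. The direction of these genes thus follows from the filter. Col5a1 and Col5a2 form type V collagen, which starts the type I fibrils of bone. Col5a1 had 9.0, 8.91 and 10.2 FPKM in KO, Het and WT Lin- cells, against 0.709, 1.27 and 1.19 FPKM in KO, Het and WT Gr1+Mac1+ cells. Col5a2 had 3.07, 5.71 and 2.83 FPKM in KO, Het and WT Lin- cells, and Col11a1, a chain of the related type XI collagen, 3.82, 6.70 and 3.71 FPKM. Col5a2 and Col11a1 were highest in the Het Lin- library, like type I collagen, and Col5a1 was highest in the WT one. Among matrix proteoglycans, Bgn (biglycan) was higher in Lin- cells by 2.25 and Dcn (decorin) by 2.23, while Fn1 (fibronectin) was lower by a log2 ratio of -4.62. Of these 24 genes 3 were tested and 19 were below 1 FPKM in every Lin- library. Dcn was tested only through its Lin- level, so its direction follows from the filter.

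Markers of other stromal and skeletal cells had mixed levels. Of 20 niche stroma genes, 14 were below 1 FPKM in all Lin- libraries. The stem cell factor gene Kitl, the main product of Cxcl12-rich reticular cells beside Cxcl12, had 0.0307, 0.0728 and 0.0420 FPKM in KO, Het and WT Lin- cells, and Pdgfra 0.114, 0.325 and 0.104 FPKM. Of the 8 tested, 3 were higher in Lin- cells and 4 in Gr1+Mac1+ cells, beside 51.5% and 30.3% of all loci. The median of the 8 log2 ratios was -0.69, beside 0.33 for all loci. Igfbp4, the niche gene with the highest Lin- level, stood at -0.97 and Vcam1, also a macrophage gene, at -4.21, both lower in Lin- cells, while Angpt1 (angiopoietin 1) was higher in Lin- cells by 1.897. Lepr, the leptin receptor that marks such cells, was higher in Lin- cells by 0.80 (adjusted p = 0.00322, limma), at 3.002, 3.14 and 3.74 FPKM in KO, Het and WT Lin- cells. All 10 genes of the chondrocyte list were below 1 FPKM in every library. Col2a1, the main cartilage collagen, stood in the list of other collagens and was higher in Lin- cells, with 1.91, 2.88 and 2.41 FPKM in KO, Het and WT Lin- cells, against 0.0186, 0.0777 and 0.0686 FPKM in KO, Het and WT Gr1+Mac1+ cells (log2 ratio 1.68, adjusted p = 0.00031, limma). Col2a1 was tested only through its Lin- level, so that direction follows from the filter. Col10a1, a collagen of hypertrophic cartilage, had 1.35, 0.758 and 0.276 FPKM in KO, Het and WT Lin- cells and was not tested. Of 16 endothelial genes 7 were tested, 5 were higher in Lin- cells and 2 in Gr1+Mac1+ cells, beside 51.5% and 30.3% of all loci. Eng was higher in Lin- cells by 3.18, Plvap by 2.69 and Egfl7 by 2.64, with 54.9, 50.7 and 53.6 FPKM of Eng in KO, Het and WT Lin- cells. Plvap was tested only through its Lin- level, and Vcam1 above only through its Gr1+Mac1+ level, so their directions follow from the filter. Cdh5, the defining junction protein of endothelium, had 0.213, 0.263 and 0.0583 FPKM in KO, Het and WT Lin- cells. Of 13 osteoclast genes 7 were tested, 1 was higher in Lin- cells and 3 in Gr1+Mac1+ cells, beside the same shares of all loci.

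**Figure D5:**
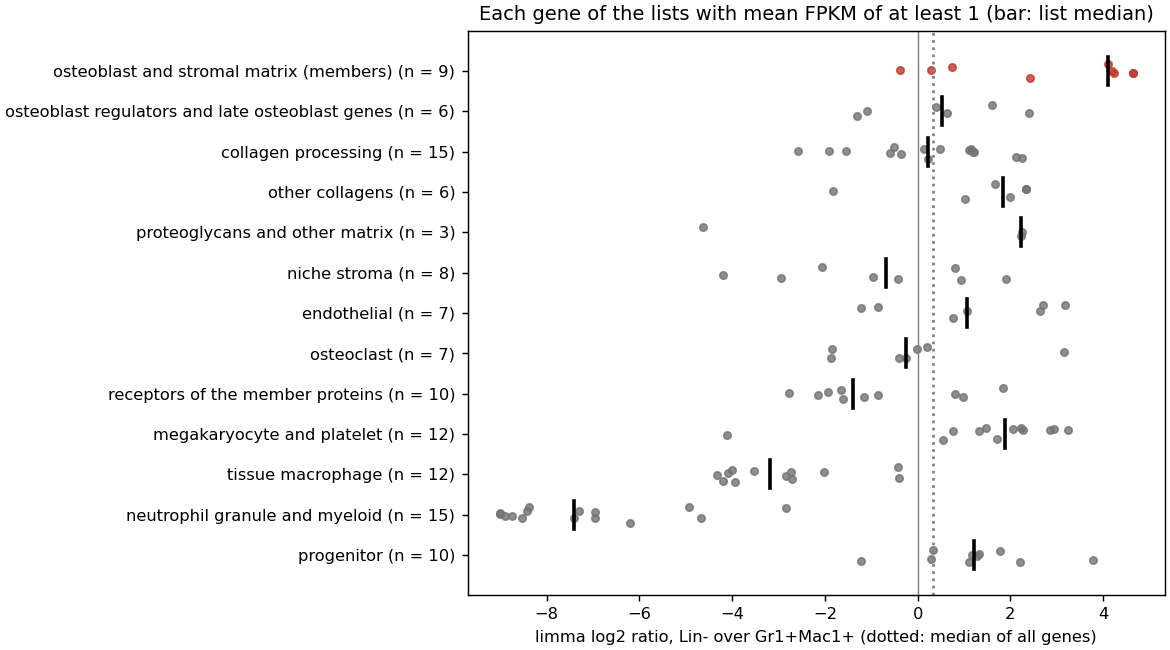
Log2 ratio of Lin- over Gr1+Mac1+ cells for the tested genes of each list, each point 1 gene, the bar the list median and the dotted line the median of all loci. The matrix genes have a median of 4.10, other collagens of 1.84, collagen processing of 0.22 and neutrophil genes of -7.41 (medians within the KO, Het and WT pools -9.09, -4.07 and -8.93). Some low genes were tested only because 1 fraction was high, so the median of other collagens follows in part from the filter.

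Transcripts of receptors for these matrix proteins were present in both fractions. Of 20 receptor genes 10 were tested, 3 were higher in Lin- cells and 7 in Gr1+Mac1+ cells, beside 51.5% and 30.3% of all loci. The median of their log2 ratios was -1.38, beside 0.33 for all loci. Itgb1, the common chain of the collagen-binding integrins, was higher in Lin- cells by 0.81. Cd44, a receptor of osteopontin, was lower by -1.15. Cxcr4, the receptor of Cxcl12, had 23.0, 30.8 and 21.1 FPKM in KO, Het and WT Lin- cells, against 181, 175 and 167 FPKM in KO, Het and WT Gr1+Mac1+ cells (log2 ratio -2.77, SE 0.12, adjusted p = 0.000124, limma).

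Over the 6 libraries, the genes whose log2(FPKM + 1) profile was most like the mean of the 10 genes included Twsg1, Tti1, Trappc6a, Meis1, Chchd10, Alkbh5, Cnp, Gtl3 and Arl6ip4, with Pearson r between 0.997 and 0.999. The points fall into the 2 fractions, and 3741 of the 11477 genes compared had an r of at least 0.95, so the measure mostly reads the fraction difference. Against the same mean, Col1a1 had an r of 0.9998, Ibsp 0.992, Cxcl12 0.854, Alpl 0.788 and Spp1 -0.454.

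Promoter sequence was available in the RefSeq window table (GRCm38.p6, 250 bases before to 50 after the start) for 8 of the 10 genes. The windows of Bglap and Ibsp are shown because both genes are made almost only by mineralising cells and move together here, while their windows differ in the motifs marked. Capitals mark the RUNX core ACCACA on either strand (TGTGGT on the other) and the TATA box TATAAA on the gene's own strand.

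Bglap promoter (chr3:88384417-88384716, minus strand): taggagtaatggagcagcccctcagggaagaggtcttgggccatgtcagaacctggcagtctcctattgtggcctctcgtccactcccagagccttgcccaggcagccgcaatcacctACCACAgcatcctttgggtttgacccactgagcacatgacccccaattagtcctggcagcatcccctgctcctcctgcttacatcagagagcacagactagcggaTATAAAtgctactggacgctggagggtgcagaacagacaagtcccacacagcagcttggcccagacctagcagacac

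Ibsp promoter (chr5:104299037-104299336, plus strand): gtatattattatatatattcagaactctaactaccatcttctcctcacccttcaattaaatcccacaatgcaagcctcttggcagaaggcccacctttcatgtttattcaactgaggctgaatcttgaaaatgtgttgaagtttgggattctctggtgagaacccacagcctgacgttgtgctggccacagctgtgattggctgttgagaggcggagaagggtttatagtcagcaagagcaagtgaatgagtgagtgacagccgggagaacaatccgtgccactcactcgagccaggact

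The Bglap window holds ACCACA at position -132 and TATAAA at position -27 from the start, and the Ibsp window holds neither as searched. The Ibsp window does hold TTTATA, which is TATAAA read on the other strand, and that strand was not searched for it. ACCACA occurs in the windows of 3 of the 8 genes, Bglap, Spp1 and Sparc, and in 16.8% of the 32851 promoters in the table. TATAAA occurs in 3, Bglap, Col3a1 and Spp1, and in 8.32% of all promoters. The window of Spp1 at chr5:104434861-104435160 holds ACCACA at position -128 and TATAAA at position -211, and its other window holds neither. A link between the motifs and the levels was not tested.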

How the data were processed

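FPKM values for 23746 loci in 6 libraries (3 pools, 2 fractions, 1 library per group) were used as deposited, with their interval bounds and status. The authors used TopHat2 2.0.7, Cufflinks 2.0.2 and mm10, per the submitters' processing notes; the role of each tool, the annotation and library strandedness were not given in the sources used here. As FPKM is relative to a library's total, abundant genes lower all others. Implied fragments are the square of 2 x FPKM over the distance to the upper bound.

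limma 3.58.1 (R 4.3.3) was run on log2(FPKM + 1) with trend and the pool as a block, on loci with mean FPKM of at least 1, with Benjamini-Hochberg adjustment over all of them. Per the labels' protocols, the pairing is by mouse: each pool of 4 mice gave both fractions. Their deviations correlated by -0.03 (KO), -0.07 (Het) and 0.10 (WT). The pools differ in genotype, so the spread holds genotype as well. Genotypes were compared by the size rule only, without a test, for loci of status OK. The limma and size-rule steps were tested on simulated data. Python 3.11.15 was used otherwise. Alternatives were other pseudocounts and filters, rescaling, 3-fold, no block, no trend, and each pool left out.

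The 10 genes and all lists were chosen with earlier results of these data known. By rule, the text names the 10 genes, Diap1, the 4 list genes highest in Lin- cells, list genes past the size rule and the 10 genes most alike. Serpinh1, Bmp1, Sp7, Kitl, Pdgfra, Vcam1, Cdh5, Col2a1, Col10a1, C1qc and Cxcr4 were named after their values were seen. Results for some genes that the rule names are not reported here.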

Additional observations from a re-analysis of the deposited data

How the results depend on the processing

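Of the genes tested between fractions, 7 were higher in Lin- cells, and between 5 and 8 were under the alternatives: 5 with a mean FPKM of at least 5, 6 after rescaling by the median ratio, 8 without trend, and 6 to 7 with a pool left out. Without the replicate block the number was 7, and no call among the 10 genes changed. Genes higher in Gr1+Mac1+ cells numbered 0, but 1 after rescaling and 0 to 1 with a pool left out, in each case Spp1. In the WT pool 1 gene was lower in Lin- cells by the size rule after rescaling. Alpl passed limma without trend (adjusted p = 0.0477), and Cxcl12 did not pass with no filter on low values (adjusted p = 0.159). Between Het and WT Lin- cells the count of 1 became 0 at 3-fold. Between Het and WT Gr1+Mac1+ cells the count of 1 became 2 with a pseudocount of 0.1 and after rescaling, and 0 with a pseudocount of 5 and at 3-fold. The median of highest over lowest Lin- level was 1.82 and ranged from 1.19 to 1.67 with a library left out, the lowest without Het. The cause was not tested. No log2 ratio of the 10 genes by limma or between genotypes changed sign under the alternatives run. The sign of the fraction ratio within a single pool was not followed. Rescaling lowers Lin- against Gr1+Mac1+ levels, so small ratios within a pool can turn. Rescaling moved the median of all loci between fractions to -0.05, against 0.33 without it, and turned the balance of their calls (given above). At levels below 1 FPKM, as for Col3a1, a few fragments set the value.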
